A study of Mus musculus with 14 samples.

Results

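The genes described here are 9 that lymphocytes of the helper and innate lymphoid kind use: the costimulatory and inhibitory receptors *Icos*, *Cd28* and *Ctla4*, the cytokine and chemokine receptors *Il7r*, *Il23r* and *Ccr6*, and the transcription factors *Rora*, *Ahr* and *Gata3*. They were taken by gene symbol, with each symbol found once in each of the 2 deposited tables, so they are 9 of the 55889 genes listed without dextran sulfate sodium (DSS) and of the 54721 genes listed after it. They were chosen by the read counts of the same mice after DSS, in which *Icos* and *Rora* were higher in the knockout without overlap between the genotypes. The difference between the genotypes after DSS is therefore given below as a description of the members, with no test.

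RNA of mouse colon was sequenced from 14 mice that the labels give as C57BL/6N. Wild type (WT) mice were compared with *MiR-29ab1-/-* mice, abbreviated KO, a germline knockout of 1 of the 2 genomic clusters of the miR-29 family, so that every cell type of the animal lacked it. There were 4 WT and 4 KO mice without DSS, and 3 WT and 3 KO mice after 3 days of 3.5% DSS, a sulfated polysaccharide in the drinking water that injures the colonic epithelium. The study's methods name the colon as the tissue, and littermates of 8 to 12 weeks, matched for age and sex unless stated otherwise, whereas the labels name small intestinal crypts. The summed level of 8 colon epithelium markers was 2143 to 7675 CPM (counts per 1e+06 reads, scaled by TMM) in the 14 mice, that of 9 small intestine markers was 173 to 449 CPM, and *Apoa4*, a defining gene of the small intestine, had 0 to 2 reads. The summed level of 7 smooth muscle markers was 2.13 to 5.83 CPM, and that of 7 fibroblast and matrix markers 13.5 to 51.9 CPM. General epithelial markers, 9 genes, summed to 11074 to 23231 CPM. Whether the libraries hold whole colon or mainly its epithelium was not tested, so lymphocyte genes are not read as content of the whole wall. The labels give no age, sex or cage for single libraries, and the p-values below measure the spread between mice, each deposited as a sample of its own.

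Reads on genes totalled 14231157 to 18185020 per mouse without DSS and 20076719 to 23153149 after DSS. A count of 3 reads, taken as the smallest level that can be told from 0, was 0.165 to 0.215 CPM without DSS and 0.125 to 0.159 CPM after DSS, which covers counting error only. *Lncpint*, a long noncoding RNA gene beside the deleted cluster, had 7 to 23 reads in WT and 1386 to 2889 in KO mice without DSS, and 6 to 14 against 706 to 1144 after DSS, so each library followed its genotype label. Mitochondrial genes took 5.70% to 13.9% of the reads without DSS and 6.15% to 8.81% in WT mice after DSS, but 14.8% and 20.2% in KO mice 1 and 2 after DSS and 7.43% in KO mouse 3. Of the mice without DSS, WT mouse 1 and KO mouse 4 stood apart in their T cell genes: the summed level of 18 genes of the T cell receptor complex and its proximal signalling was 275 and 345 CPM in them and 67.0 to 160 CPM in the other 6.

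ICOS, CD28 and CTLA-4 belong to one family of T cell surface receptors. CD28 and ICOS add a second signal to that of the T cell receptor, and CTLA-4 competes with CD28 for the ligands CD80 and CD86 and restrains the response. The interleukin 7 receptor keeps naive T cells and innate lymphoid cells alive, the interleukin 23 receptor and CCR6 are typical of Th17 cells and of group 3 innate lymphoid cells, RORα and GATA-3 are required for group 2 innate lymphoid cells, GATA-3 also for Th2 cells, and the aryl hydrocarbon receptor AHR senses dietary and bacterial compounds in group 3 innate lymphoid cells and in the epithelium. MicroRNAs of the miR-29 family lower the level of mRNAs that carry a match to the miRNA seed in the 3′ UTR.

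The miR-29 sequences are shown because the genotype removes a part of them. In RefSeq (GRCm38.p6), *Mir29a* (mature arm on chromosome 6, 31062673 to 31062694, minus strand) and *Mir29b-1* (31063025 to 31063047) lie in the deleted cluster, and *Mir29b-2* (chromosome 1, 195037091 to 195037113, plus strand) and *Mir29c* (195037600 to 195037621) lie in the one that was kept. The 3 mature forms share 1 seed, given in capitals (bases 2 to 8), so that the kept cluster still encodes miRNAs with this seed, and the whole of miR-29b-3p.
mmu-miR-29a-3p: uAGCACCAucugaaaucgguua
mmu-miR-29b-3p: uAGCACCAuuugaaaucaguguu
mmu-miR-29c-3p: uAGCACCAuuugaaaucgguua

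Matches to this seed were searched on the mRNA strand in the annotated 3′ UTRs of GENCODE vM21 (GRCm38), as TGGTGCT (a 7mer, pairing with bases 2 to 8) and as TGGTGCTA (an 8mer, which contains the 7mer). Of the 9 members, 3 held a 7mer, against 13.8% of all 21045 genes with a 3′ UTR, and 2 of these, *Icos* and *Rora*, held an 8mer, against 3.00% of all genes. Long 3′ UTRs hold more matches: the longest 3′ UTR had a median of 2569 bases over the members and of 960 bases over all genes. Among the 2512 genes whose longest 3′ UTR was within 20% of the 2606 bases of *Icos*, 25.0% held a 7mer and 6.65% an 8mer. Among the 169 genes within 20% of the 9285 bases of *Rora*, 53.8% held a 7mer and 16.0% an 8mer. Among the 2455 genes within 20% of the 2715 bases of *Ahr*, 25.8% held a 7mer. The 4 matches are given with the bases around them, the match in capitals.
Icos 8mer, chr1:60998611-60998635, plus strand: ttatctgtgtttccaTGGTGCTAtt
Rora 7mer, chr9:69379989-69380013, plus strand: aattgaaggagtgtcTGGTGCTgtg
Rora 8mer, chr9:69386237-69386261, plus strand: tgtttttctgatgtgTGGTGCTAga
Ahr 7mer, chr12:35500169-35500193, minus strand: ttaaagtaaatggttTGGTGCTttt
*Cd28*, *Ctla4*, *Il7r*, *Il23r*, *Ccr6* and *Gata3* held neither form in this annotation. A match is a run of letters, and whether miR-29 binds there was not measured in these files.

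After DSS, *Icos* and *Ctla4* had the highest fold changes between the genotypes among the members that passed the filter on low counts. *Icos* had 3, 11 and 5 reads in WT mice 1 to 3 and 46, 42 and 26 reads in KO mice 1 to 3, which is 0.125, 0.460 and 0.237 CPM against 2.37, 2.22 and 1.08 CPM. Every KO mouse was above every WT mouse, and the lowest KO mouse was mouse 3. The fitted log2 fold change was 2.75 (SE 0.54). *Ctla4* had 18, 19 and 25 reads in WT mice and 145, 153 and 35 in KO mice, or 0.752, 0.794 and 1.18 CPM against 7.46, 8.10 and 1.46 CPM. KO mice 1 and 2 stood far above the rest, whereas KO mouse 3 was close to the highest WT mouse, and the log2 fold change was 2.63 (SE 0.63). *Cd28* had 8, 8 and 13 reads in WT mice and 50, 29 and 15 in KO mice. In CPM these were 0.334, 0.334 and 0.616 against 2.57, 1.54 and 0.624, so that KO mouse 3 and WT mouse 3 were nearly equal and the absence of overlap is narrow (log2 fold change 1.87, SE 0.57). In a bulk sample, more cells that express a gene and more RNA of it per cell cannot be told apart.

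These receptors are neighbours on chromosome 1: *Cd28* (60716800 to 60773359), *Ctla4* (60887000 to 60915832) and *Icos* (60977927 to 61000320) lie on the plus strand within 284 kb, with no other protein-coding gene between them in the tables. Of the 3, only *Icos* held a match to the miR-29 seed.

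Of the cytokine and chemokine receptors, *Il7r* (chromosome 15, 9505788 to 9530176, minus strand) had 44, 21 and 32 reads in WT mice after DSS and 215, 131 and 47 in KO mice. The levels were 1.84, 0.878 and 1.52 CPM against 11.1, 6.94 and 1.95 CPM, with a log2 fold change of 2.23 (SE 0.62). KO mouse 3 again stood just above the WT mice. *Ccr6* (chromosome 17, 8236043 to 8257141), the receptor of the chemokine CCL20, had 0, 3 and 7 reads in WT and 3, 5 and 2 in KO mice, and the genotypes overlapped. *Il23r* (chromosome 6, 67422932 to 67491855, minus strand) had 0, 0 and 2 reads in WT and 1, 0 and 0 in KO mice, so a difference was not detectable at this depth.

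Among the transcription factors, *Rora* (chromosome 9, 68653786 to 69388246) had 22, 38 and 24 reads in WT mice after DSS and 96, 77 and 66 in KO mice, or 0.920, 1.59 and 1.14 CPM against 4.94, 4.08 and 2.74 CPM. The 3 KO mice were closer to each other than for *Ctla4* or *Il7r*, all were above the WT mice, and the log2 fold change was 1.68 (SE 0.34). *Gata3* (chromosome 2, 9857078 to 9890034, minus strand) had 8, 9 and 21 reads in WT and 39, 35 and 26 in KO mice. In CPM, WT mouse 3 at 0.995 lay next to KO mouse 3 at 1.08, and the log2 fold change was 1.54 (SE 0.50). *Ahr* (chromosome 12, 35497974 to 35535038, minus strand) was the most abundant member, with 281 to 363 reads in WT and 292 to 403 in KO mice. Its levels were 15.2, 12.8 and 13.3 CPM in WT and 16.8, 15.5 and 16.8 CPM in KO mice, a log2 fold change of 0.25 (SE 0.13), and with CPM taken from the total count alone the genotypes overlapped.

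Thus 7 of the 9 members did not overlap between the genotypes after DSS and were higher in KO mice, in a table where 5.33% of the 14908 genes tested did so. The members were selected in this contrast and nothing is read from that count. The same 7 passed the filter on low counts, and *Icos*, *Cd28* and *Gata3* reached the count minimum in all 3 KO mice but in 1 WT mouse each. The median log2 fold change of those that passed was 1.87, and that of all genes tested was -0.0050. KO mouse 1 was the highest mouse for 6 members and KO mouse 2 for 1.

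**Figure D1:**
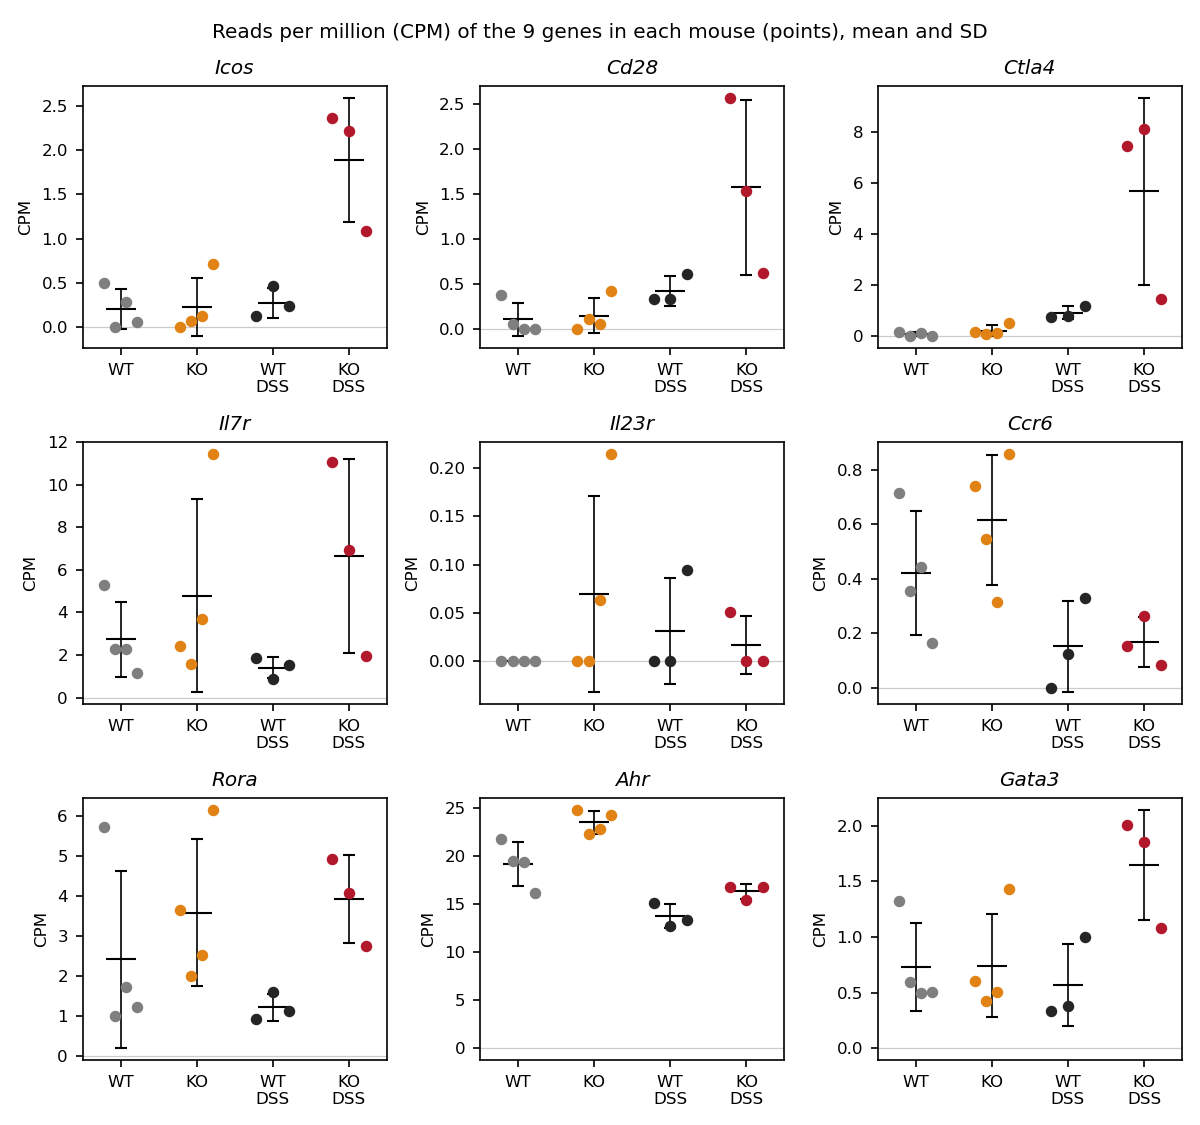
Each panel plots 1 gene and each point is 1 mouse, in CPM on a linear axis starting near 0, for the 4 WT and 4 KO mice without DSS and the 3 WT and 3 KO mice after DSS. Horizontal bars are group means and error bars are SD. *Icos* in KO mice after DSS lay between 1.08 and 2.37 CPM, above the 0.125 to 0.460 CPM of WT mice, and KO mouse 4 without DSS is the highest of the 8 mice without DSS in 8 of the 9 panels.

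The difference that chose the members was that after DSS, so the genotype comparison was tested in the mice without DSS. Earlier results of these mice were known at the choice, so the test is not fully independent of it. Over 15441 genes, 3 (0.0194%) passed an adjusted p under 0.05 in edgeR's quasi-likelihood test with Benjamini-Hochberg adjustment, and 3.67% had an unadjusted p under 0.05. Of the 9 members, 3 passed the filter on low counts, none of them passed the adjusted p by edgeR or by DESeq2, and 1, *Ahr*, had an unadjusted p under 0.05 by each tool. *Ahr* had 396, 327, 350 and 291 reads in WT mice 1 to 4 and 368, 367, 360 and 339 in KO mice 1 to 4, or 21.8, 19.5, 19.4 and 16.2 CPM against 24.8, 22.3, 22.8 and 24.3 CPM. All 4 KO mice were above all 4 WT mice, as for 1.11% of the genes tested, and the log2 fold change was 0.29 (SE 0.11, edgeR unadjusted p = 0.0256, adjusted p = 1.00). The unadjusted p was 0.0743 without WT mouse 4, 0.0613 without KO mouse 1 and 0.0548 without KO mouse 4.

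*Rora* without DSS had 104, 17, 31 and 22 reads in WT mice and 54, 33, 40 and 86 in KO mice, or 5.72, 1.01, 1.72 and 1.22 CPM against 3.64, 2.01, 2.53 and 6.16 CPM. WT mouse 1 lay among the KO mice and the other 3 WT mice lay below all of them. The log2 fold change was 0.56 (SE 0.58, edgeR adjusted p = 1.00), and without WT mouse 1 it was 1.44, with an unadjusted p of 0.00687 and an adjusted p of 0.998. Without KO mouse 4 it was 0.17, with an edgeR unadjusted p of 0.781, so the size of the value rested on single mice of both genotypes. *Il7r* had 96, 38, 41 and 21 reads in WT and 36, 26, 58 and 160 in KO mice, and its log2 fold change of 0.79 (SE 0.67, adjusted p = 1.00) fell to -0.10 without KO mouse 4.

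The other 6 members were too low for the filter without DSS. *Icos* had 9, 0, 5 and 1 reads in WT and 0, 1, 2 and 10 in KO mice. *Cd28* had 7, 1, 0 and 0 against 0, 2, 1 and 6 reads, and *Ctla4* had 3, 0, 2 and 0 against 2, 1, 2 and 7 reads. For these receptors the reads were concentrated in WT mouse 1 and KO mouse 4, in which the T cell genes were also highest, and the part of that in the levels was not tested. *Gata3* had 24, 10, 9 and 9 against 9, 7, 8 and 20 reads, and *Ccr6* had 13, 6, 8 and 3 against 11, 9, 5 and 12 reads. *Il23r* was at 0 in the 4 WT mice and had 0, 0, 1 and 3 reads in the KO mice, at or under the floor in each, so no fold is given. In the fit without the filter, the log2 fold change of *Icos* was 0.07 (SE 1.04) and that of *Gata3* was 0.01 (SE 0.51), and the few reads of *Icos* leave a wide range.

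The DSS effect averaged over both genotypes is another contrast than the one that chose the members, but it holds the same reads of the mice after DSS, so it is not independent of that choice. For *Icos* and *Rora*, which the choice names, it is given with no p. The same holds for *Cd28* and *Gata3*, which after DSS reached the count minimum in all 3 KO mice but in 1 WT mouse each. In the fit of all mice, *Ctla4* reached the count minimum in no mouse without DSS and *Ccr6* in no mouse after DSS. Each passed the filter only through the mice in which it was high, and is also given with no p. Mice without and after DSS came in separate tables, so DSS cannot be told apart from the experiment, its libraries and its gene annotation. Of the 16370 genes tested in a fit of all 14 mice, 58.2% passed an adjusted p under 0.05. Of the 9 members, 8 were tested and 5 passed, 3 of them higher and 2 lower after DSS, a share near that of all genes. The 5 include *Icos*, *Cd28*, *Ctla4* and *Ccr6*, which are given with no p, so nothing is read from that count.

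Among the members tested, *Ctla4*, *Cd28* and *Icos* had the highest log2 fold changes in this comparison. *Ctla4* went from 0 to 7 reads per mouse without DSS to 18 to 153 after it, with a log2 fold change of 4.47 (SE 0.54). On the scale of the joint fit, its mean was 0.0621 ± 0.0743 CPM (SD, n = 4) in WT and 0.187 ± 0.180 CPM (SD, n = 4) in KO mice without DSS, and 1.03 ± 0.267 CPM (SD, n = 3) in WT and 6.40 ± 4.13 CPM (SD, n = 3) in KO mice after it. The reads of *Ctla4* were thus higher after DSS in every mouse of each genotype. *Cd28* followed with 2.89 (SE 0.65), from 0.100 ± 0.166 to 0.482 ± 0.183 CPM in WT mice and from 0.140 ± 0.172 to 1.78 ± 1.10 CPM in KO mice. *Icos* had 2.03 (SE 0.65), and here the WT means were 0.187 ± 0.203 CPM without and 0.308 ± 0.191 CPM after DSS, within their SD, while the KO means were 0.205 ± 0.299 and 2.13 ± 0.794 CPM. The average for *Icos* thus rests on the KO mice, whose reads chose it, and without WT mouse 2 of the DSS experiment it was 1.75. A test of whether the DSS effect differed between the genotypes would reuse the contrast that chose the members and was not made.

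*Ccr6* was lower after DSS, at 3 to 13 reads per mouse without it and 0 to 7 after it, with a log2 fold change of -1.37 (SE 0.53). Its means went from 0.383 ± 0.201 and 0.564 ± 0.214 CPM in WT and KO mice to 0.171 ± 0.188 and 0.189 ± 0.103 CPM. *Ahr* was lower by a small amount, with a log2 fold change of -0.20 (SE 0.08, adjusted p = 0.0354). The calls of *Ccr6* and *Ahr* were lost when single mice were left out, *Ccr6* in 8 and *Ahr* in 10 of the 14 fits. *Gata3* had 0.69 (SE 0.37), *Il7r* 0.07 (SE 0.51, adjusted p = 0.922) and *Rora* -0.12 (SE 0.38), and *Il23r* was too low to be tested. *Il7r*, well measured among the members, therefore did not pass in this comparison, and the signs of *Il7r* and *Rora* turned with the mice left out. *Ccr6* is also carried by B cells, and of 12 markers of B cells and lymphoid follicles 7 were lower after DSS, among them *Pax5* (log2 fold change -2.62, SE 0.55, edgeR adjusted p = 8.8e-04). The part of B cells in the level of *Ccr6* was not tested. Of the 18 T cell receptor genes, 0 passed by edgeR in this comparison and 0 had an edgeR unadjusted p under 0.05. By DESeq2 0 passed and 1 had an unadjusted p under 0.05.

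**Figure D2:**
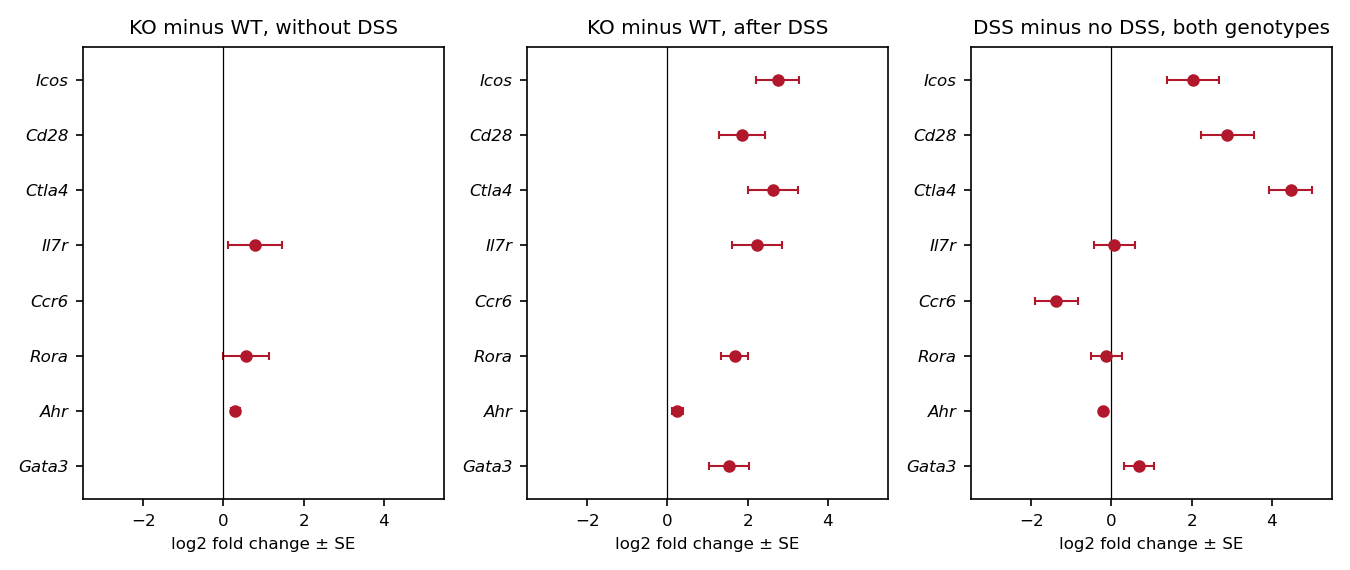
Points are fitted log2 fold changes with bars of 1 SE, for KO against WT without DSS (left), KO against WT after DSS (middle) and DSS against no DSS averaged over the genotypes (right). A gene has a point only in the comparisons in which it passed the filter on low counts, and *Il23r*, which passed in none, is left out. The middle panel shows the contrast from which the genes were chosen, with *Icos* at 2.75 and *Ahr* at 0.25. In the right panel *Ctla4*, *Cd28* and *Icos* lie at 4.47, 2.89 and 2.03.

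Levels of different genes were compared per kilobase of gene length. *Ahr* was first in all 4 groups, with 3.12 ± 0.372 CPM per kb in WT and 3.82 ± 0.193 in KO mice without DSS (SD, n = 4) and 2.23 ± 0.205 and 2.65 ± 0.124 after DSS (SD, n = 3). In 3 of the groups it stood above the next gene by more than the sum of both SDs. In KO mice after DSS it did not: *Ctla4* came next with 2.43 ± 1.57 CPM per kb, and *Il7r* with 1.43 ± 0.977. Without DSS *Il7r* was second in both genotypes (0.589 ± 0.379 and 1.03 ± 0.971 CPM per kb) and *Ctla4* was seventh in WT and sixth in KO mice. From the second place down, neighbours in the order lay within the sum of their SDs in every group, except for *Ccr6* above *Il23r* at the end of the order in KO mice after DSS.

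The ligands and partner chains of the receptors were set beside them. Of 8 ligand genes, 4 were tested in each genotype comparison. *Cd86*, a ligand of CD28 and CTLA-4, was higher in KO mice after DSS, with 0.753 ± 0.119 CPM against 0.163 ± 0.0768 CPM in WT mice (SD, n = 3), at a log2 fold change of 2.19 (SE 0.52). It had 12 to 18 reads in KO and 2 to 5 in WT mice. No WT mouse reached the count minimum, so it is given with no p. *Cd80*, the other ligand, had 1.36 (SE 0.47) without DSS, from 13 to 17 reads in KO and 2 to 10 in WT mice. Again no WT mouse reached the count minimum, and no p is given. Neither ligand passed the filter in the other experiment. The ligand of ICOS, *Icosl*, differed by -0.02 (SE 0.19) after DSS and by -0.18 (SE 0.22) without it, and *Il7* by 0.30 (SE 0.27) and 0.01 (SE 0.22). *Il7* was higher after DSS in the average over genotypes (log2 fold change 0.85, SE 0.17, adjusted p = 6.8e-04), as was *Icosl* (0.37, SE 0.15, adjusted p = 0.0438). Of 12 partner chains and signalling proteins, 11 were tested without DSS and 12 after it, and 0 reached an unadjusted p under 0.05 by edgeR between the genotypes in either experiment, against 3.67% and 7.24% of all genes. With RLE size factors 1 did after DSS. *Stat3*, which transmits the signal of the interleukin 23 receptor, came nearest with 0.25 (SE 0.11, unadjusted p = 0.0522) after DSS. In the average over genotypes *Il12rb1*, the partner chain of *Il23r*, was higher after DSS (2.97, SE 0.51). It had 2 to 9 reads in WT and 0 to 7 in KO mice without DSS, and reached the count minimum only after DSS, so no p is given. *Crlf2*, which joins the IL-7 receptor chain to form the TSLP receptor, was also higher after DSS (0.68, SE 0.22, edgeR adjusted p = 0.0158).

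Genes that AHR is known to induce did not follow *Ahr* in one direction. *Cyp1a2* was at 0 in every mouse, and *Cyp1a1* had at most 9 reads in any mouse after DSS. *Ahrr*, the repressor of AHR, had a log2 fold change between the genotypes of 1.42 after DSS (SE 0.45, unadjusted p = 0.0116, adjusted p = 0.646) and of -0.83 without DSS (SE 0.66, unadjusted p = 0.232). *Nqo1*, a quinone reductase, had -0.45 without DSS (SE 0.17, unadjusted p = 0.0252, adjusted p = 1.00) and -0.30 after it (SE 0.21, unadjusted p = 0.190). *Tiparp*, with 0.35 (SE 0.17, unadjusted p = 0.0709) after DSS, completed the 3 that could be tested.

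T cell markers were examined in the same libraries. After DSS, all 18 genes of the T cell receptor complex and its proximal signalling had a positive log2 fold change, with a median of 0.85, and 7 had an unadjusted p under 0.05, against 7.24% of all genes. None passed the adjusted p by edgeR, as 0.0134% of all genes did, and 1 did by DESeq2. Among the 7 were *Cd6* (log2 fold change 1.71), *Cd5* (1.59), *Lat* (1.28), *Cd8b1* (1.16), *Cd247* (1.12) and *Trbc2* (0.81). The summed level of the list was 81.3, 69.4 and 140 CPM in WT mice and 255, 162 and 106 CPM in KO mice, so that KO mouse 3 lay below WT mouse 3. The number at an unadjusted p under 0.05 rested on single mice: it was 1 without WT mouse 1, 2 without WT mouse 2 or KO mouse 1, 3 without KO mouse 2, 11 without WT mouse 3 and 12 without KO mouse 3. Without DSS, 16 of the 18 were positive with a median of 0.20, and 0 had an unadjusted p under 0.05 by edgeR or DESeq2. Without KO mouse 4, 2 of the 18 were positive, with a median of -0.48, and without WT mouse 1, 2 had an unadjusted p under 0.05.

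Per 100 CPM of this T cell list, *Icos* was 0.154 to 0.663 CPM in WT and 0.926 to 1.37 CPM in KO mice after DSS. *Ctla4* was 0.844 to 1.15 against 1.37 to 5.00 CPM, *Cd28* was 0.412 to 0.482 against 0.588 to 1.01 CPM, and *Gata3* was 0.412 to 0.709 against 0.785 to 1.14 CPM. On this ratio these 4 members were higher in every KO mouse than in any WT mouse, in a table where 0.322% of the 14908 genes tested were, while *Il7r*, *Rora*, *Ahr*, *Ccr6* and *Il23r* overlapped between the genotypes. The ratio uses the reads that chose the members, so nothing is read from that count. For *Rora* the ratio was 0.811 to 2.29 in WT and 1.93 to 2.59 in KO mice. The part of the T cell genes in the difference of any member was not tested.

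**Figure D3:**
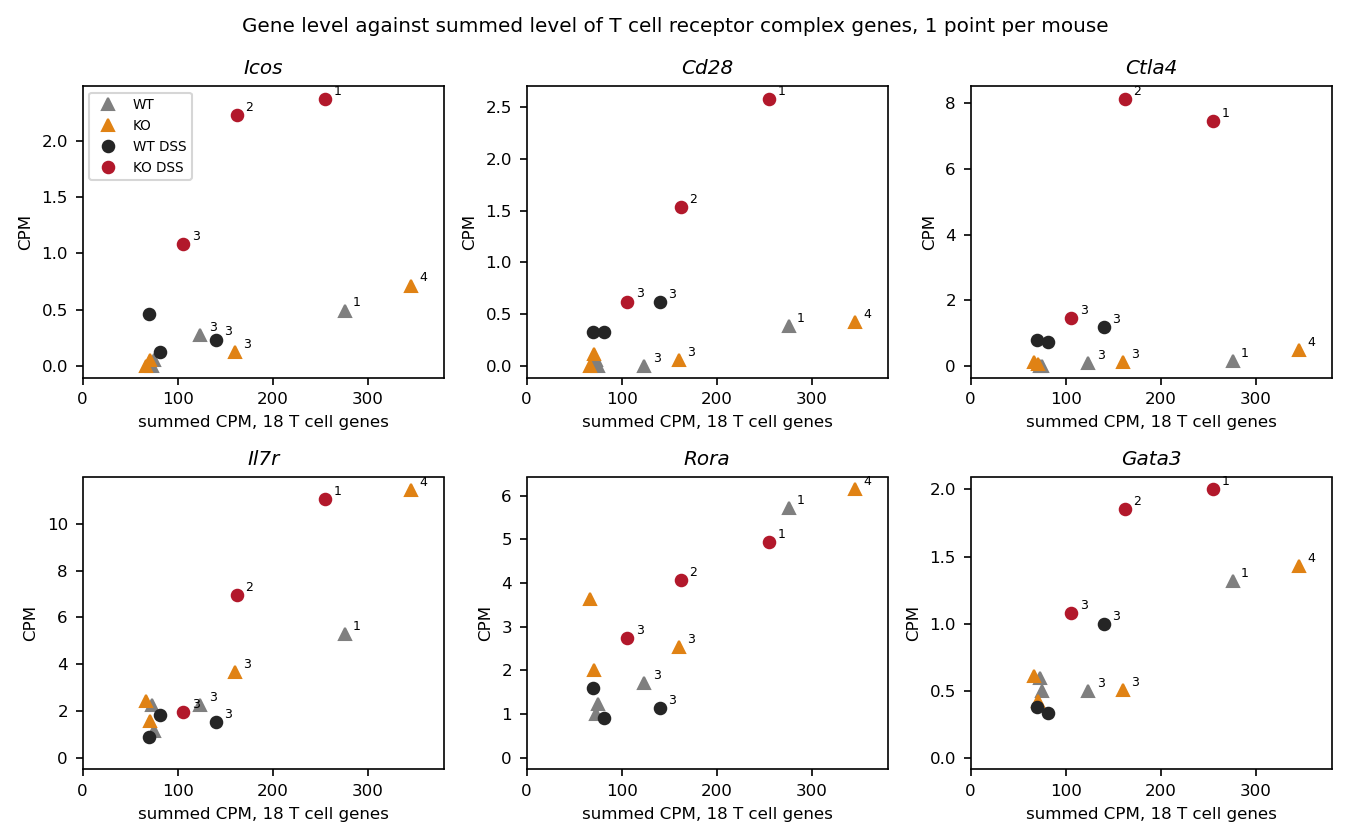
Each point is 1 mouse, with the summed CPM of 18 T cell receptor complex genes on the horizontal axis and the CPM of 1 gene on the vertical axis, both linear. Triangles are mice without DSS and circles mice after DSS, in grey or black for WT and in orange or red for KO, and mice above 100 CPM on the horizontal axis carry their number. WT mouse 1 and KO mouse 4 without DSS lie at 275 and 345 CPM of T cell genes with *Ctla4* at 0.165 and 0.501 CPM, and KO mice 1 and 2 after DSS lie at 255 and 162 CPM with *Ctla4* at 7.46 and 8.10 CPM.

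Genes that define the subsets were mostly low. Of the Th17 and group 3 innate lymphoid genes, *Il17a*, *Il17f* and *Il22* had at most 4, 4 and 9 reads in any of the 14 mice. *Il5* was at 0 in all 14 mice and *Il13* had at most 1 read. Of 3 Th2 and group 2 innate lymphoid genes tested after DSS, 1 was positive and the median was -0.12, with *Hpgds* at -0.12 and *Il17rb* at -0.20. The positive one, *Areg*, a growth factor of group 2 innate lymphoid cells that other cells also make, had 70.0 ± 19.3 CPM in WT and 147 ± 66.0 CPM in KO mice after DSS, a log2 fold change of 1.07 (SE 0.42, unadjusted p = 0.0495, adjusted p = 0.667). Of the genes of Th1, NK and group 1 innate lymphoid cells, 2 of 8 tested after DSS had an unadjusted p under 0.05, both higher in KO mice: *Cxcr6* at 1.22 (SE 0.37) and *Klrb1c* at 1.76 (SE 0.45). The share of all genes was 7.24%, and 0 of the 8 passed the adjusted p by edgeR. Regulatory T cells also carry CTLA-4 and ICOS. Of the other genes listed for them, 6 of 6 tested were positive with a median of 0.49, and 0 had an unadjusted p under 0.05 by edgeR, against 2 of 10 tested by DESeq2. *Trdc*, the constant chain of the gamma delta T cell receptor, had 9.24 CPM in WT mouse 1 without DSS, 1.37 to 2.44 CPM in the other 3 WT mice and 0.472 to 1.90 CPM in KO mice. The genotypes overlapped, and its log2 fold change was -1.65 (SE 0.72, unadjusted p = 0.0472, adjusted p = 1.00), with an unadjusted p not under 0.05 with the replicate block.

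Other cell types in the tissue did not all go the same way after DSS. Of 8 macrophage and dendritic cell genes tested, 7 were positive with a median of 0.41, and 0 had an unadjusted p under 0.05 by edgeR or DESeq2. Of 4 mast cell genes tested, all were lower in KO mice, 3 at an unadjusted p under 0.05: *Mcpt1* (log2 fold change -1.91), *Mcpt2* (-1.79) and *Kit* (-0.37). The share of all genes was 7.24%. By edgeR 0 of the 4 passed the adjusted p, and by DESeq2 1 of 7 tested did. Of 3 B cell genes tested, the median was -1.31 with none under 0.05, and the summed level of the list was 2.13 to 12.7 CPM in WT and 2.41 to 4.77 CPM in KO mice. Of 5 fibroblast and matrix genes tested, 2 were positive with a median of -0.07, and 1 had an unadjusted p under 0.05, the collagen gene *Col3a1* at 1.24 (SE 0.31, edgeR unadjusted p = 0.00365, adjusted p = 0.646). By DESeq2, 1 of 7 tested in this list passed the adjusted p. General epithelial genes had a median of 0.13.

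The genes whose levels were most like those of *Icos* and *Rora* across the 14 mice were found from log2 CPM after the mean of each table was removed, over 14245 and 14244 other genes. For *Icos* they were *Rab8b* (Pearson's r 0.918), *4930503L19Rik* (0.886), *Cd247* (0.886), *Lilr4b* (0.885) and *Ap1m1* (0.883). For *Rora* they were *4930503L19Rik* (0.903), *Cd6* (0.900), *Rab8b* (0.899), *Cd5* (0.890) and *Tlr12* (0.888). *Rab8b* and *4930503L19Rik* stand on both, and *Cd247*, *Cd6* and *Cd5* belong to the T cell list. Between *Icos* and *Rora* the value was 0.836, and between *Icos* and the other members it went from 0.283 for *Il23r* to 0.843 for *Ctla4*, with 0.385 for *Ahr*. These values are descriptions over 14 mice that share libraries, and the genotype difference after DSS, from which the genes were chosen, is a part of each.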

How the data were processed

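Colon RNA was extracted with TRIzol, made into libraries with a directional kit and sequenced by a commercial provider. The files deposited by the authors hold unnormalized read counts per gene, with 1 table per experiment. Per the labels, HISAT2 and DESeq2 were used, while versions, genome build, counting tool and use of strand are not given in the sources used here. The positions of all 9 members equal those of GENCODE vM21 (GRCm38). Their own comparison columns and 14 FPKM columns were not used.

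The members and all gene lists were chosen with earlier results of these data known. Each table was tested with edgeR 4.0.16 in R 4.3.3 (filterByExpr with minimum count 10 and minimum total 15, TMM, glmQLFit and glmQLFTest with robust estimation, Benjamini-Hochberg over all genes tested). Without DSS, 15441 genes were tested, and after DSS 14908. The DSS effect came from 1 fit of all 14 mice over 54378 shared gene identifiers. Scripts were tested on simulated data. Alternatives were DESeq2 1.42.0, RLE factors, no filter, the total count alone, genes of equal length, 1 fit for all mice, the replicate number as a block, each mouse left out, and, added after seeing the data, levels per 100 CPM of the T cell list, leaving out mitochondrial genes, single mice for the T cell list, or WT mouse 1 and KO mouse 4 together. Besides the members, the text names list genes with an unadjusted p under 0.05, up to 3 per list with the most reads, the 5 genes most like *Icos* and *Rora*, and *Lncpint*. The other list genes named, cytokines and ligands among them, were chosen after their values were seen. Counts differed between replicates of every group by more than sampling noise. A few list genes are not reported here.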

Additional observations from a re-analysis of the deposited data

Results flagged for a closer look

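In 4 of 17 pairs of a gene and a group of 4 mice without DSS, 1 mouse lay far from the other 3 by Dixon's criterion (the gap to the nearest mouse over the range of the group), a criterion that chance meets in about 1 in 20 groups of normal values. That rate need not hold for counts this low, or for genes measured in the same mice. In WT mice, mouse 1 was the one in each case: *Rora* was at 5.72 CPM with the next mouse at 1.72, *Gata3* at 1.32 with the next at 0.595, and *Cd28* at 0.385 with the next at 0.0595. In KO mice, *Ctla4* was at 0.501 CPM in mouse 4 with the next mouse at 0.135. These are the same mice whose T cell genes summed to 275 and 345 CPM, and they rest on 104, 24, 7 and 7 reads in that order. The groups of 3 mice after DSS were not examined by this criterion.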

How the results depend on the processing

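Without DSS the number of members that passed the adjusted p was 0 under each alternative, the replicate block included. The number at an unadjusted p under 0.05 was 1, went from 0 to 2 when single mice were left out, and was 2 (*Ahr* and *Rora*) without WT mouse 1 and KO mouse 4 together. With all 8 mice, 3.67% of all genes tested had such a p. For the DSS effect 5 members were called, *Icos* and *Cd28* among them, as were 58.2% of all genes tested. It was 2 to 5 members when single mice were left out, down to 2 without WT mouse 2 of the DSS experiment. After DSS the number of members not overlapping was 7, 6 with the total count alone, and 4 per 100 CPM of the T cell list, a scale chosen after seeing the data. Of all genes tested, 5.33% did not overlap and were higher in KO mice, and 0.322% per 100 CPM of the T cell list. The members were selected in this contrast, so nothing is read from these counts. Signs turned in values that were not called. When single mice were left out, *Il7r* without DSS went from -0.10 (without KO mouse 4) to 1.33, and for the DSS effect *Il7r* went from -0.22 to 0.51, below 0 in 5 of 14 fits, and *Rora* from -0.25 to 0.30, above 0 in 2 of 14. Without WT mouse 1 and KO mouse 4 together *Rora* was 0.49. With both mice left out *Gata3* had a log2 fold change of 1.16 for the DSS effect, and *Ahr* did not pass (edgeR adjusted p = 0.0966). The cause was not tested. Of the list genes without DSS, 4 had an unadjusted p under 0.05, 10 by DESeq2 and 8 with the replicate block, and after DSS 17 by edgeR and 27 by DESeq2. By edgeR 3.67% of all genes had such a p without DSS and 7.24% after it, and by DESeq2 798 of 29573 and 1284 of 27172. DESeq2 was run without the filter on low counts, so it tested more of the list genes. In the T cell list both tools tested 18 genes after DSS, with 7 by edgeR and 11 by DESeq2. The part of the filter in the difference was not tested. In the replicate block the same-numbered mice correlated in their deviations from the group means by -0.19 to 0.15, so the numbers did not pair the mice. No replicate block could be fitted after DSS because the column names carry numbers that the sample titles do not. The depth limits *Il23r* and *Ccr6* throughout, and *Icos*, *Cd28* and *Ctla4* without DSS.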
